A study of Homo sapiens with 4 samples.

Results

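The HOX genes encode homeodomain transcription factors and lie in 4 clusters, HOXA, HOXB, HOXC and HOXD, on chromosomes 7, 17, 12 and 2. Their levels were compared between cells of HCT116, a human line established from a colorectal carcinoma, given 5-aza-2'-deoxycytidine (decitabine) at 1 µM for 72 hours and HCT116 cells given vehicle, with 2 arrays of total RNA in each group. Decitabine is incorporated into replicating DNA in place of deoxycytidine and traps the DNA methyltransferases, so that methylation is lost as cells divide. Per the labels, treated cultures were dosed again before the harvest, and all arrays come from the same line, so other lines are not represented. The labels do not say whether the 2 samples of a group were separate cultures, so the p-values reflect array-to-array spread that may be technical only. Members were the genes named HOX, a letter A to D and a number by a probe set that names a single gene. This gave 27 of the 17958 genes tested, 1 in HOXA, 10 in HOXB, 7 in HOXC and 9 in HOXD, each measured by 1 probe set. The RefSeq gene table lists 39 HOX genes, so the 10 HOXB and 9 HOXD genes are all covered, while 10 of the 11 HOXA genes and 2 of the 9 HOXC genes were not analysed here. No statement below describes the HOXA cluster as a whole, since HOXA2 is its only member tested.

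HOX genes of a cluster are numbered from 1 to 13 by paralog group, the set of genes in different clusters that descend from the same ancestral gene. In embryos, low-numbered genes are expressed from the hindbrain backwards and high-numbered ones mark the trunk, the tail end and the distal limbs, an order that follows their order along the chromosome. Polycomb proteins keep the clusters silent where they are not used, Trithorax-type proteins keep them active, and retinoic acid and CDX factors switch them on along the body axis. In the adult gut, HOX expression remains in a pattern tied to the position along the intestine, and several HOX promoters are CpG islands that gain methylation in colorectal tumors.

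Promoters of 6 HOXD genes are shown because 4 of these genes rose after treatment and 2 with a close position in the cluster, HOXD3 and HOXD12, did not pass the test. Each sequence holds the 250 bases before the transcript start that RefSeq annotates, read 5′ to 3′ on the plus strand of GRCh38.p14, with every CG dinucleotide, the methylated unit, in capitals. The windows are chr2:176092471-176092720 for HOXD13, chr2:176116528-176116777 for HOXD10, chr2:176151300-176151549 for HOXD4, chr2:176188418-176188667 for HOXD1, chr2:176099545-176099794 for HOXD12 and chr2:176157057-176157306 for HOXD3.
HOXD13: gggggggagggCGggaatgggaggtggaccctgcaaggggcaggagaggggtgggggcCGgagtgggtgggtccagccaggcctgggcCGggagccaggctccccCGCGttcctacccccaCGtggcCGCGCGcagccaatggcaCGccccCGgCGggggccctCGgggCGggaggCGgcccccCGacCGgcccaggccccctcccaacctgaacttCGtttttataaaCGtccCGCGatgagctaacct
HOXD10: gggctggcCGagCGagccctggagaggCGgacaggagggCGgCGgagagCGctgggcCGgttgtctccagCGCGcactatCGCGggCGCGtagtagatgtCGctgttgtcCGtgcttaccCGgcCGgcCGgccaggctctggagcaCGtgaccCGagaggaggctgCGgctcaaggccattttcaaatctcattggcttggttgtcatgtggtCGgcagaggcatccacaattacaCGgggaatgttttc
HOXD4: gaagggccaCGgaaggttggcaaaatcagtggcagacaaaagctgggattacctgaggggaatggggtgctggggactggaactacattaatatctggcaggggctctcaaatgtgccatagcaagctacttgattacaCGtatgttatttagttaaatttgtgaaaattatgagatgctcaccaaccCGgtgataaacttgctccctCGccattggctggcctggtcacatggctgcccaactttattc
HOXD1: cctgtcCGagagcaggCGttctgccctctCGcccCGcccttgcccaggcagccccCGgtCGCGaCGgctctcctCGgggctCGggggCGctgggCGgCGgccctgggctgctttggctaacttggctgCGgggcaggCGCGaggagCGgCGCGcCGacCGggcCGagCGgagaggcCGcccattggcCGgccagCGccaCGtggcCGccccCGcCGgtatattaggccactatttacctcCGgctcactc
HOXD12: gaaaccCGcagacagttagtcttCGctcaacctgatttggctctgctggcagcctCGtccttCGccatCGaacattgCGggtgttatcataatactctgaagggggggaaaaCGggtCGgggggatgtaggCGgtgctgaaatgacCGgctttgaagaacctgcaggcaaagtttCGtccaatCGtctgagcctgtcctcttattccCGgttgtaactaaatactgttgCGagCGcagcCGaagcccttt
HOXD3: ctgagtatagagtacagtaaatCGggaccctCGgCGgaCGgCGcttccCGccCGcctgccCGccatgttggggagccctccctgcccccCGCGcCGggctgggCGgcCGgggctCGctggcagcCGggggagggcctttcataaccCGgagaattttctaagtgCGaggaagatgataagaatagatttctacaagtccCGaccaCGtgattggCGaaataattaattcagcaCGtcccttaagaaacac
The CG count was 21 for HOXD13, 23 for HOXD10, 4 for HOXD4 and 31 for HOXD1, the genes that rose, and 16 for HOXD12 and 21 for HOXD3. Of these 6, which were picked by their calls, the genes that rose held both the lowest and the highest count. A link between CG count and the rise was not tested. Over 35116 promoter windows of the same length in the RefSeq table the median was 11, with quartiles at 3 and 23. Promoters were matched for 11 of the 27 members, and their counts ran from 4 in HOXD4 to 31 in HOXD1. No promoter was matched for HOXB2, HOXB5, HOXB9 and HOXC10, the called genes outside HOXD. Outside these 6 windows, HOXD8 had 28 CG dinucleotides, HOXD11 had 23, HOXC5 had 14, HOXA2 had 8 and HOXB1 had 7. None of these 5 genes was called. The letters TTTATNG, as found in sites of CDX factors, occurred on either strand in the windows of HOXC5 and HOXD8, against 8.93% of all windows. The letters TGATTNAT, as found in joint sites of HOX and PBX proteins, occurred in the windows of HOXA2 and HOXD11, against 2.48% of all windows. Methylation was not measured in this series.

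Levels are log2 values made by the authors with the RMA method, and levels of different genes are not compared, since each probe set has its own brightness. A gene was called at a Benjamini-Hochberg adjusted p under 0.05 in limma's fit of all 17958 genes. Of the 27 HOX genes, 7 rose and 1 fell, 29.6% of the members against 28.0% of all genes tested. The share called was therefore near that of all genes. By direction, 25.9% of the members rose against 12.4% of all genes, and 3.70% fell against 15.6%. The median log2 fold change of the members was 0.20, that of all genes -0.07, and 19 of 27 members lay above 0 against 40.6% of all genes. Only HOXB2 passed a 2-fold minimum (5.05% of all genes rose and 2.62% fell by that much). In 16 members both treated arrays lay above both vehicle arrays, against 26.3% of all genes, in 6 both lay below, against 39.5%, and in 5 the arrays overlapped. The 22 members without overlap compare with 65.8% of all genes. Of the 27 genes, 22 were outside the dimmest 33.3% of all genes by mean level, and no filter was applied to the results given here. In these bulk samples, a change in the number of cells that express a gene cannot be told apart from a change in RNA per cell.

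**Figure D1:**
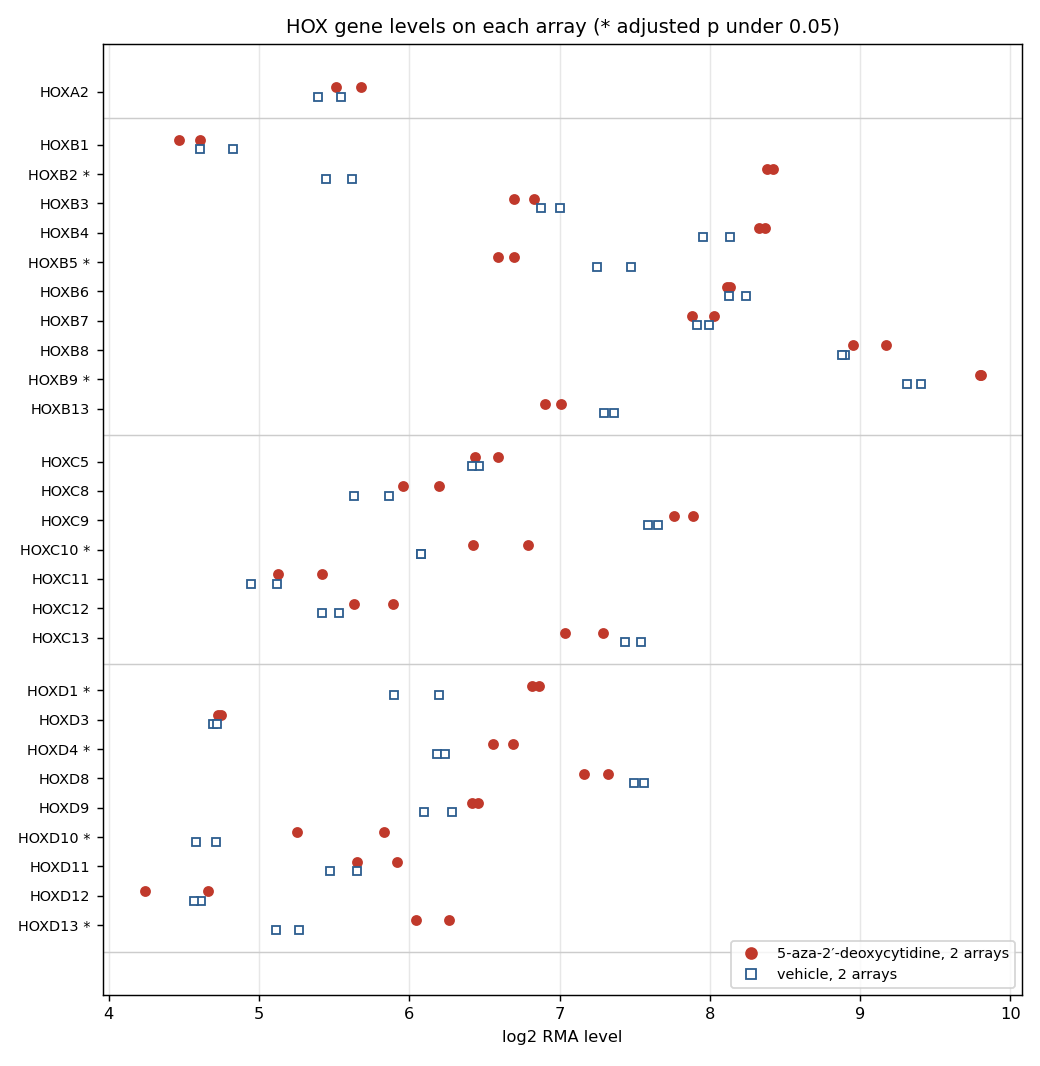
Log2 RMA level (horizontal axis) of the 27 HOX genes on each array, treated arrays as filled circles above vehicle arrays as open squares, grouped by cluster; asterisks mark genes with an adjusted p under 0.05. HOXB2 shows the widest gap, with treated arrays at 8.38 and 8.42 and vehicle arrays at 5.62 and 5.44, while most other genes differ by less than 1 on the log2 scale.

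HOXB2, which acts in segment identity of the hindbrain next to HOXB1, had the largest change of the 27 genes. Its level was 8.38 and 8.42 on the treated arrays, against 5.62 and 5.44 on the vehicle arrays. The groups were separated by far more than their own spread, with means of 8.40 ± 0.03 in treated and 5.53 ± 0.12 in vehicle cells (SD, n = 2). The rise was 7.31-fold (log2 fold change 2.87, SE 0.12, limma adjusted p = 1.61e-05), and it ranked 151 of 17958 genes from the top. It was called in all 4 fits that left out 1 array, with log2 fold changes between 2.78 and 2.96. The genes on either side of it did not pass the test. HOXB1, the other anterior member of this cluster, had 4.60 and 4.46 on the treated arrays, against 4.61 and 4.82 on the vehicle arrays (log2 fold change -0.18, adjusted p = 0.355). HOXB3 averaged 6.76 ± 0.10 in treated cells, against 6.94 ± 0.09 in vehicle cells (SD, n = 2, log2 fold change -0.18, adjusted p = 0.338). In both neighbours the treated arrays lay just below the vehicle arrays.

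The remaining HOXB genes had changes under 2-fold, and values of both signs. HOXB4, a regulator of blood stem cells, had 8.33 and 8.37 on the treated arrays, against 7.96 and 8.13 on the vehicle arrays, and its log2 fold change of 0.30 was not called (adjusted p = 0.113). RefSeq places HOXB4 inside the extent of HOXB3, so transcripts of this pair may not be fully separated. HOXB5, a gene of foregut and enteric nerve development, was the only member that fell. It had 6.59 and 6.69 on the treated arrays, against 7.25 and 7.47 on the vehicle arrays, without overlap. It was 1.65-fold lower (log2 fold change -0.72, SE 0.13, limma adjusted p = 0.00782), and without vehicle replicate 2 it was not called (adjusted p = 0.0778). HOXB6, HOXB7 and HOXB8 had log2 fold changes of -0.06, 0.00036 and 0.17, with adjusted p of 0.739, 0.999 and 0.367. The 95% moderated interval for HOXB7 ran from -0.29 to 0.29, so a change of HOXB7 within that range remains possible. HOXB9, a gene of thoracic patterning, had 9.80 and 9.80 on the treated arrays, against 9.41 and 9.31 on the vehicle arrays. It rose 1.36-fold (log2 fold change 0.44, SE 0.11, limma adjusted p = 0.0296). That call was lost without vehicle replicate 1 and without vehicle replicate 2 (adjusted p = 0.153 and 0.244). HOXB13, known from prostate and rectal epithelium, had 6.90 and 7.01 on the treated arrays, against 7.36 and 7.29 on the vehicle arrays. Its log2 fold change of -0.37 lay close to the threshold without passing it (adjusted p = 0.0560). Over the 10 HOXB genes, 2 rose and 1 fell (12.4% and 15.6% of all genes). Their median was -0.03 on the log2 scale, but 0.05 after housekeeping centring, 0.04 after repeated quantile normalization and 0.02 without vehicle replicate 2. Leaving HOXB2 aside, the mean level of the other 9 genes was 7.57 and 7.58 on the treated arrays, against 7.61 and 7.67 on the vehicle arrays.

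HOXD held 4 of the 8 calls, all rises, spread over both ends of its 9 genes. Of all genes, 12.4% rose. HOXD13, which patterns the digits and the end of the gut, stands at the posterior end. It had 6.04 and 6.27 on the treated arrays, against 5.12 and 5.26 on the vehicle arrays. The groups did not overlap, and the rise was 1.95-fold (log2 fold change 0.97, SE 0.13, limma adjusted p = 0.00263). With HOXB2 it was the only called member that kept its call in all 4 fits with 1 array left out, with adjusted p up to 0.0199. HOXD10, a gene of the lumbar spinal cord and hindlimb, had 5.83 and 5.25 on the treated arrays, against 4.71 and 4.58 on the vehicle arrays. It rose 1.86-fold (log2 fold change 0.90, SE 0.20, limma adjusted p = 0.0158). Its treated arrays differed by more than those of any other called member, and the call was lost without vehicle replicate 2 (adjusted p = 0.0604). HOXD1, at the anterior end, had 6.86 and 6.81 on the treated arrays, against 5.90 and 6.20 on the vehicle arrays. It rose 1.73-fold (log2 fold change 0.79, SE 0.14, limma adjusted p = 0.00681), a call lost without vehicle replicate 1 (adjusted p = 0.0644). HOXD4, a gene of the hindbrain and neck, had 6.56 and 6.69 on the treated arrays, against 6.18 and 6.24 on the vehicle arrays. It rose 1.33-fold (log2 fold change 0.41, SE 0.12, limma adjusted p = 0.0416). This call was lost when vehicle replicate 1, vehicle replicate 2 or treated replicate 2 was left out (adjusted p = 0.270, 0.198 and 0.0861).

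The HOXD genes between these 4 did not pass the test. HOXD3, whose extent overlaps that of HOXD4 in RefSeq, had 4.75 and 4.72 on the treated arrays, against 4.69 and 4.72 on the vehicle arrays (log2 fold change 0.03, 95% interval -0.24 to 0.30). HOXD12, next to HOXD13, had 4.24 and 4.66 on the treated arrays, against 4.61 and 4.56 on the vehicle arrays (log2 fold change -0.14, 95% interval -0.52 to 0.24), and its arrays overlapped. HOXD11, the next gene along, had a log2 fold change of 0.22 (adjusted p = 0.291). HOXD9 had a log2 fold change of 0.25 (adjusted p = 0.188) and HOXD8 one of -0.29 (adjusted p = 0.129). Over the 9 HOXD genes the median was 0.25, and their mean level was 5.97 and 5.99 on the treated arrays, against 5.63 and 5.63 on the vehicle arrays. Of the 9, 7 had both treated arrays above both vehicle arrays and 1, HOXD8, had them below. The shares over all genes were 26.3% and 39.5%.

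Among the 7 HOXC genes, 1 rose and 0 fell (at an unadjusted p under 0.05 in limma's fit HOXC13 was lower). The shares over all genes were 12.4% and 15.6%. HOXC10, a gene of the lumbar region, was the called gene, and it had 6.79 and 6.42 on the treated arrays, against 6.08 and 6.08 on the vehicle arrays. It rose 1.44-fold (log2 fold change 0.53, SE 0.15, limma adjusted p = 0.0399). The call was lost when vehicle replicate 1, vehicle replicate 2 or treated replicate 1 was left out (adjusted p = 0.168, 0.165 and 0.0762). HOXC8, HOXC9, HOXC11 and HOXC12 had log2 fold changes of 0.33, 0.20, 0.24 and 0.29, each with treated arrays above the vehicle arrays and adjusted p from 0.136 to 0.270. HOXC13, a gene of hair and nail formation, had 7.04 and 7.29 on the treated arrays, against 7.54 and 7.43 on the vehicle arrays (log2 fold change -0.33, adjusted p = 0.118). HOXC5 had a log2 fold change of 0.07, and its extent overlaps those of HOXC4 and HOXC6 in RefSeq. The median of the 7 genes was 0.24. HOXA2, which specifies the second pharyngeal arch, had 5.68 and 5.51 on the treated arrays, against 5.39 and 5.54 on the vehicle arrays, with overlap (log2 fold change 0.12, adjusted p = 0.522).

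**Figure D2:**
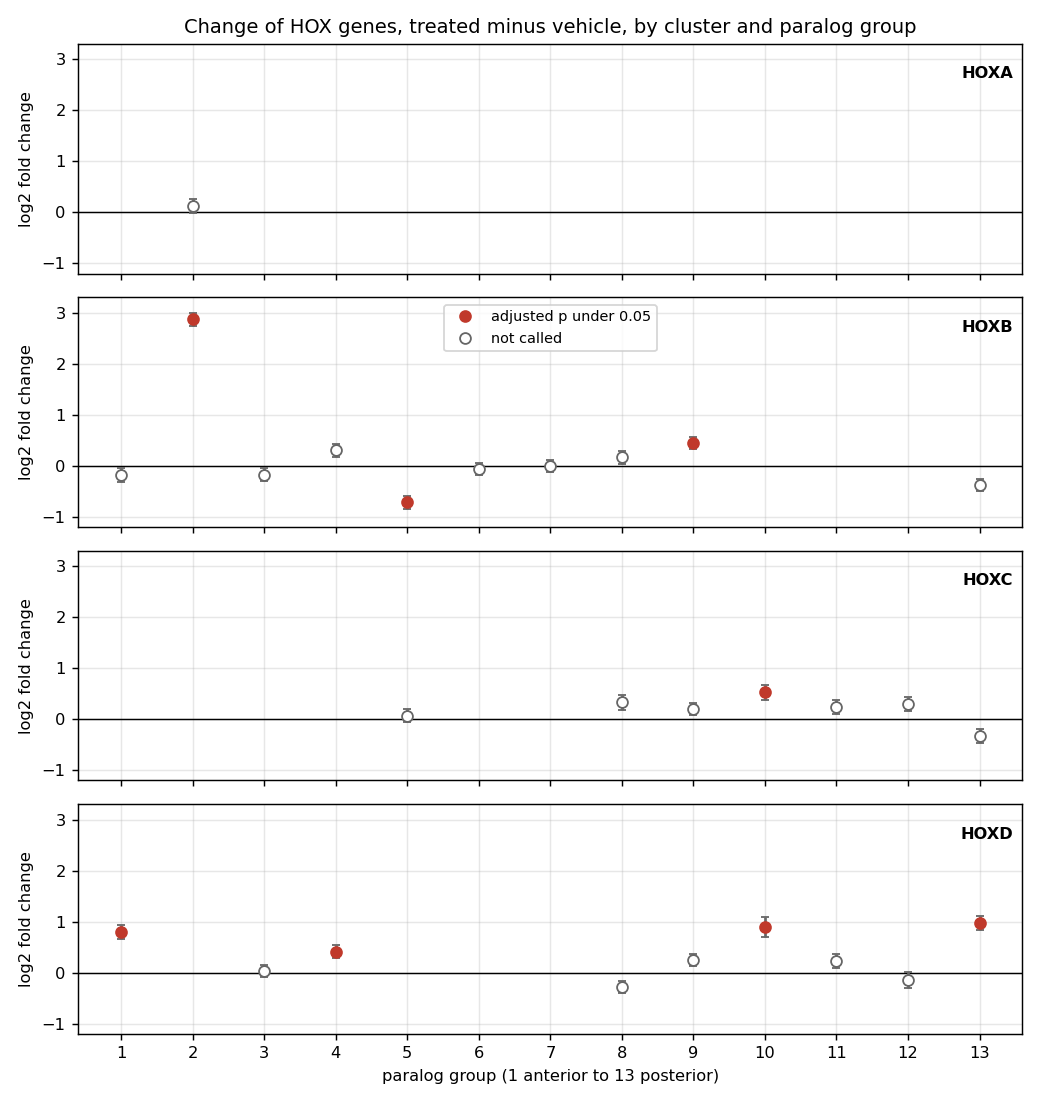
Log2 fold change, treated minus vehicle (vertical axis, bars are the moderated SE), against paralog group (horizontal axis) in 4 panels for HOXA to HOXD; filled points have an adjusted p under 0.05. The rises of HOXB2 at 2.87 and of HOXD1, HOXD10 and HOXD13 at 0.79 to 0.97 stand apart from their neighbours, and the HOXC genes stay between -0.33 and 0.53.

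Fold changes of paralogs were set side by side within each group. In group 2, the log2 fold change was 2.87 for HOXB2 and 0.12 for HOXA2. In group 13, HOXD13 was at 0.97, HOXC13 at -0.33 and HOXB13 at -0.37, and of these 3 posterior genes HOXD13 alone was called. In group 1, HOXD1 was at 0.79 and HOXB1 at -0.18, and in group 5, HOXB5 was at -0.72 and HOXC5 at 0.07. In groups 9, 10 and 11 all values lay above 0, with 0.44, 0.20 and 0.25 for HOXB9, HOXC9 and HOXD9, 0.53 and 0.90 for HOXC10 and HOXD10, and 0.24 and 0.22 for HOXC11 and HOXD11. Group 10 was the only group with more than 1 gene in which each tested member rose. Differences between the changes of paralogs were taken within each array in 17 pairs. The widest was HOXA2 minus HOXB2 at -2.75, followed by HOXB13 minus HOXD13 at -1.34 and HOXC13 minus HOXD13 at -1.29. The within-array difference did not overlap between the groups in 14 of the 17 pairs, these 3 among them. No such share was taken over pairs of other genes, and some genes enter more than 1 pair. The count of pairs therefore has no background to be read against. Of all single genes, 65.8% did not overlap. The two-sided exact permutation test of 2 arrays against 2 cannot go below p = 0.333 whatever the values, so it does not bear on whether paralogs differed, and no other test of these differences was made.

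By position, 2 of 6 genes of paralog groups 1 to 3 rose. Of 9 genes of groups 4 to 8, 1 rose and 1 fell, and 4 of 12 genes of groups 9 to 13 rose. Over all genes, 12.4% rose and 15.6% fell. The medians of the HOX genes at these positions were 0.08, 0.07 and 0.24. These counts were small, and no test of a difference between positions or clusters was made. The median of groups 1 to 3 rested on few genes and was 0.46 when the dimmest 33.3% of genes were left out, which removed HOXB1 and HOXD3.

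**Figure D3:**
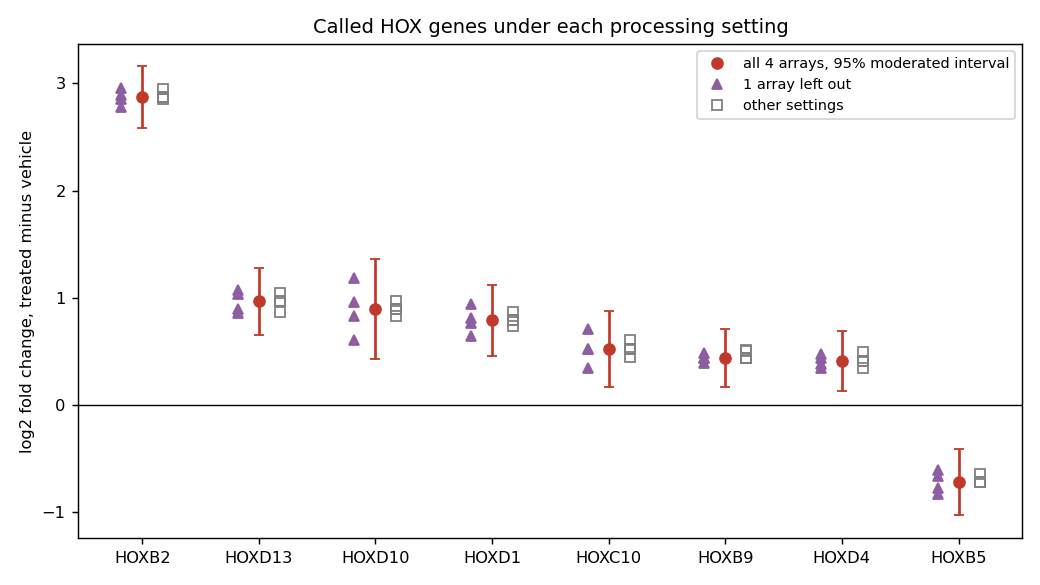
Log2 fold change, treated minus vehicle, of the 8 called HOX genes with all 4 arrays (circles, bars are the 95% moderated interval), with 1 array left out (triangles) and under other processing settings (squares). Each gene kept its direction under every setting drawn, HOXB2 staying between 2.78 and 2.96.

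The number of rises depended on the vehicle arrays. Without vehicle replicate 1 and without vehicle replicate 2 there were 3 rises in each fit, with 1 and 0 falls. The fit lacking treated replicate 1 gave 7 rises and 1 fall, and that lacking treated replicate 2 gave 6 rises and 3 falls. The calls over all genes also dropped without a vehicle array, to 1267 rises and 1196 falls without vehicle replicate 1 and to 1335 and 1237 without vehicle replicate 2, against 2229 and 2794 with all arrays. Centring on housekeeping genes gave 2587 rises and 2140 falls over all genes, and 7 rises and 1 fall among the HOX genes.

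Genes and RNAs that lie among or beside the HOX genes were measured beside them. PRAC1, a gene between HOXB9 and HOXB13 named for its expression in prostate, rectum and colon, had 4.84 and 5.44 on the treated arrays, against 4.15 and 4.01 on the vehicle arrays. It rose 2.08-fold (log2 fold change 1.06, SE 0.20, limma adjusted p = 0.00905), while HOXB13 on its far side lay lower without passing the test. SKAP1, an adaptor of T cell signaling that lies beyond HOXB1, fell by 0.94 on the log2 scale (adjusted p = 0.00392). EVX2, the homeobox gene beyond HOXD13, had 4.81 and 5.05 on the treated arrays, against 5.39 and 5.23 on the vehicle arrays (log2 fold change -0.38, adjusted p = 0.0793). EVX1, beyond the posterior end of HOXA, had a log2 fold change of -0.07 (adjusted p = 0.738). Near the clusters, HIBADH fell by 0.69 (adjusted p = 0.0279) and CALCOCO1 rose by 0.43 (adjusted p = 0.0419), both on the log2 scale. Of 13 flanking genes tested, 2 rose and 2 fell, with a median of -0.17. These counts were near the shares of all genes, 12.4% and 15.6%.

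The RNAs of the HOX loci included MIR10A and MIR196A1 in HOXB, MIR196A2 in HOXC and MIR10B in HOXD. Both MIR196A genes give the same mature miRNA, whose targets include HOX messages, so the mature sequence cannot tell the 2 loci apart. Of the mature miRNAs of these loci, only miR-196a-5p and miR-10a-5p are shown, with the seed, bases 2 to 8, in capitals. In GRCh38.p14, miR-196a-5p lies at chr12:53991762-53991783 (plus strand) and chr17:48632532-48632553 (minus strand), and miR-10a-5p at chr17:48579904-48579926 (minus strand).
miR-196a-5p: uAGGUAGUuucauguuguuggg
miR-10a-5p: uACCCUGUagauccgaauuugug
The array measured RNA of the precursor loci, not the mature forms. MIR10A had 2.78 and 2.90 on the treated arrays, against 3.12 and 3.21 on the vehicle arrays (log2 fold change -0.33, adjusted p = 0.0865). MIR10B, MIR196A1 and MIR196A2 had log2 fold changes of -0.17, -0.14 and -0.13, none called. Of the long RNAs, HOXA-AS2 and HOXB-AS3 had log2 fold changes of 0.11 and 0.04. Of the 6 RNAs tested in limma's fit, 0 rose and 0 fell, and MIR10A alone had an unadjusted p under 0.05.

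Proteins that act with HOX factors or set their chromatin gave calls in both directions. Of 8 cofactor genes of the PBX, MEIS and PKNOX families, which bind DNA together with HOX proteins, 3 rose and 0 fell, with a median of 0.24 (0 lower at an unadjusted p under 0.05). PKNOX2 rose by 0.53, PBX4 by 0.49 and PBX3 by 0.48 on the log2 scale (adjusted p from 0.0201 to 0.0340), and PKNOX1 was at 0.31 without passing the test. Of 27 Polycomb genes, 8 fell and 1 rose, with a median of -0.10, and with housekeeping centring 6 fell and 2 rose. SCMH1, a relative of the fly gene Sex comb on midleg, fell by 1.07, EZH1, a histone H3 lysine methyltransferase of the PRC2 complex, fell by 0.85 and CBX7, a PRC1 reader, fell by 0.79 (log2, adjusted p of 0.000897, 0.00292 and 0.00854). JARID2, which recruits PRC2, rose by 0.63 (adjusted p = 0.00960). EZH2, the main methyltransferase of dividing cells, was at -0.30 (adjusted p = 0.130). Of 19 Trithorax-type and activating genes, 4 rose and 3 fell, with a median of 0.07, and with housekeeping centring 4 rose and 1 fell. KDM6B, a demethylase that removes the Polycomb mark, rose by 0.80 (adjusted p = 0.00763), and DOT1L, AFF4 and KDM6A rose by 0.55, 0.50 and 0.40. MLLT3, CTCF, an insulator protein, and PSIP1 fell by 0.60, 0.42 and 0.41. The shares of all genes that rose and fell were 12.4% and 15.6%.

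Of 19 ParaHox and retinoid genes, 2 rose and 1 fell (12.4% and 15.6% of all genes), with a median of -0.02. CDX2, the intestinal homeobox factor and a known activator of HOX genes, had 8.40 and 8.84 on the treated arrays, against 7.74 and 8.11 on the vehicle arrays, and rose by 0.70 (adjusted p = 0.0344). CYP26A1, a retinoic acid hydroxylase, rose by 0.72 (adjusted p = 0.00979). ALDH1A3, which makes retinoic acid, had 10.34 and 10.22 on the treated arrays, against 11.54 and 11.52 on the vehicle arrays, and fell by 1.25 (adjusted p = 0.000500). RARG, a retinoic acid receptor, was at -0.39 (adjusted p = 0.0742). Over the 6 lists, 12 genes rose and 14 fell. These totals were 2 and 6 in the fit lacking vehicle replicate 1, and 4 and 4 in the fit lacking vehicle replicate 2. Of the 21 genes of these lists named as called, SCMH1, EZH1, KDM6B, ALDH1A3, SKAP1 and PRAC1 kept the call in all 4 fits with 1 array left out, and the other 15 lost it in at least 1. The Polycomb falls numbered 3 and 2 in these fits, the activating rises 1 in both, and the cofactor rises 0 in both. Rises of the ParaHox and retinoid list numbered 0 without vehicle replicate 1, and the activating falls numbered 1 without vehicle replicate 1, 0 without vehicle replicate 2 and 1 without treated replicate 2. Falls of flanking genes numbered 4 without treated replicate 1, and 1 flanking gene rose and 1 fell in each of the fits lacking a vehicle replicate. Without treated replicate 2, 1 flanking gene rose, and the ParaHox and retinoid list had 1 rise and 2 falls. Polycomb rises numbered 0 when a vehicle array was left out and 2 when a treated array was.

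**Figure D4:**
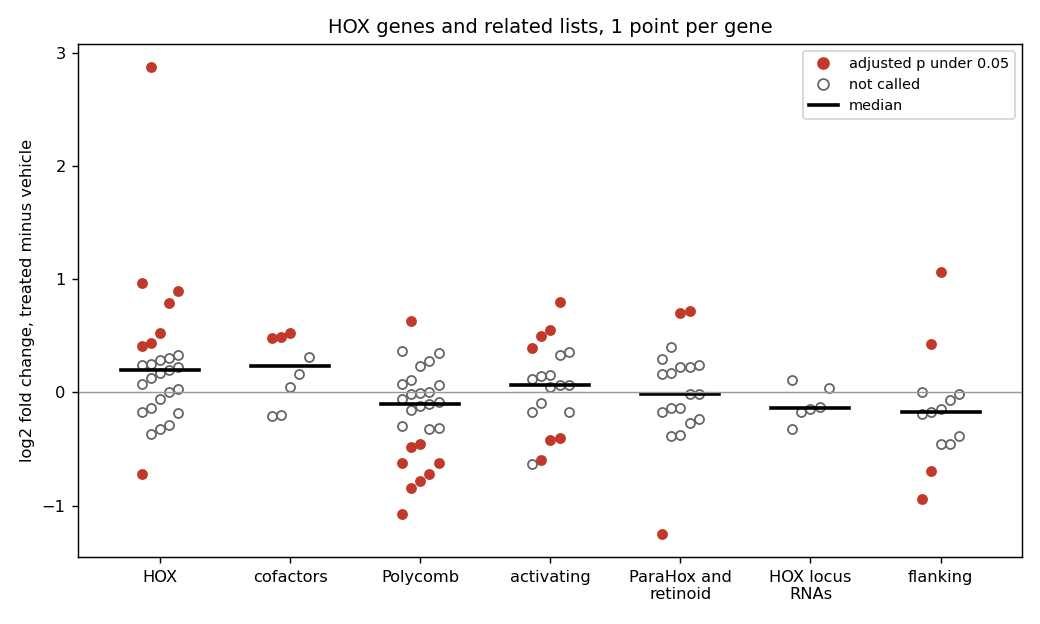
Log2 fold change, treated minus vehicle (vertical axis), of each tested gene of the HOX clusters and of 6 related lists, with filled points for an adjusted p under 0.05 and a bar at each median. The HOX median is 0.20 and the Polycomb median -0.10, and HOXB2 at 2.87 is the highest point drawn.

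The arrays and the identity of the cells were checked on the same table. Pearson's correlation over the 33297 probe sets was 0.992 between the treated arrays, 0.995 between the vehicle arrays and 0.966 to 0.971 across the groups. Of 9 epithelial markers 2 rose and 3 fell, with mean levels of 10.47 and 10.60 on the treated arrays, against 10.51 and 10.58 on the vehicle arrays. Each marker count given here stands beside 12.4% of all genes that rose and 15.6% that fell. CLDN4, EPCAM and CLDN7, which encode proteins of epithelial cell contacts, fell by 0.92, 0.72 and 0.46 on the log2 scale (limma adjusted p = 0.00205, 0.00495 and 0.0255). KRT18, a keratin, rose by 0.44 (adjusted p = 0.0330), and CDX2, described above, was the other rise. KRT19 was at 0.44 without passing the test (limma adjusted p = 0.0554). EPCAM, KRT8, KRT18, KRT19, CLDN7 and CDH1 had levels above 10 on every array, and VIL1 lay between 4.22 and 4.79. HOX genes are also active in stromal and blood cells, so markers of those cells are given beside the HOX rises. Of 12 fibroblast markers 5 rose and 0 fell (at an unadjusted p under 0.05 in limma's fit POSTN was lower), with a mean level of 5.17 and 5.25 on the treated arrays, against 4.61 and 4.62 on the vehicle arrays. Of 6 endothelial markers 2 rose and 1 fell, with means of 5.47 and 5.36 on the treated arrays, against 4.54 and 4.69 on the vehicle arrays. Of 7 leukocyte markers 3 rose and 0 fell, with means of 4.78 and 4.73 on the treated arrays, against 4.12 and 4.27 on the vehicle arrays. THY1, a surface protein of fibroblasts and some other cells, had 7.59 and 7.59 on the treated arrays, against 4.26 and 4.62 on the vehicle arrays, and its rise of 3.15 on the log2 scale exceeded that of HOXB2. The collagen gene COL6A3 rose by 2.64, ACTA2 by 0.63, COL1A1 by 0.63 and PDGFRA by 0.53. Among endothelial markers ENG rose by 2.53 and PECAM1 by 1.79, KDR fell by 0.55 and TEK was at 0.51 without passing the test. Among leukocyte markers CD3D rose by 1.79, CD14 by 1.18 and CD3E by 0.92, and LYZ was at -0.27 without passing the test. Of the 16 marker calls, those of CLDN4, EPCAM, THY1, COL6A3, ENG, PECAM1, CD3D and CD14 held in all 4 fits with 1 array left out. The other 8 were lost in at least 1 of these fits. No marker was at 0, as the lowest value of the table is 1.11. In the same lists DCN, LUM and PTPRC were not called and lay between 2.72 and 3.20 on all arrays. Some other uncalled markers lay higher, with COL1A2 between 4.73 and 4.87, COL3A1 between 4.31 and 4.49 and PDGFRB between 4.70 and 4.99. CDH5 lay between 4.24 and 4.56 and ITGAM between 4.45 and 4.78, neither called. The part of these genes in the HOX changes was not tested.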

How the data were processed

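RNA of 4 HCT116 samples, 2 treated and 2 vehicle, was measured on 4 arrays. The authors deposited a table of log2 values per probe set, made by RMA in Affymetrix Expression Console, per the submitters' processing notes. Neither software versions nor the genome build is given in the sources used here. RMA sets the arrays to a common scale, which hides any shift in total RNA, and it compresses folds near background. The medians of the deposited arrays still differed, at 5.84 and 5.84 for treated and 5.73 and 5.72 for vehicle. Detection calls were not used. The number of arrays limits the precision.

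The platform annotation gave 1 symbol for 19181 of 33297 probe sets, several for 2055 and none for 12061. For each of 17958 genes the brightest probe set on average over the 4 arrays was used, which left the 27 HOX genes with 1 probe set each. Treated minus vehicle was fitted by limma's lmFit and eBayes without covariates (limma 3.58.1, R 4.3.3) and adjusted by Benjamini-Hochberg over all genes. On simulated arrays over 17958 genes, 200 of them changed, this fit recovered 2.2% of genes given a log2 change of 0.5. It recovered 74.2% of genes given a change of 1. In the real data 5023 genes were called, so the adjusted cutoff was stricter in the simulation. These shares therefore do not give the power of the real fit, in which small HOX changes may still be missed. Probe sequences were not used, and cross-hybridization between paralogs was not assessed. The members, the 6 related lists and the markers were chosen with earlier results of these data known. All called HOX genes are named, with up to 4 members of each other list by smallest p. Every called member is named where 5 or fewer were called in 1 direction, and so are EVX1 and EVX2. HOX genes not called and EZH2 are named too. Uncalled markers named after their values were seen are DCN, LUM, PTPRC, COL1A2, COL3A1, PDGFRB, CDH5, ITGAM, KRT8, KRT19, CDH1, VIL1 and POSTN. Promoter and miRNA sequences are RefSeq's (GRCh38.p14). Alternatives left out each array, blocked on replicate number, changed scaling, filter, probe set rule, variance model and threshold.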

Additional observations from a re-analysis of the deposited data

How the results depend on the processing

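The 8 called HOX genes kept their direction under all alternatives run, and the number called did not. With 1 array left out, HOX rises numbered 3 to 7 and falls 0 to 3, and rises of the 6 related lists numbered 2 to 15 and falls 4 to 19. An adjusted p under 0.01 left 3 HOX rises, and 4 rises and 5 falls in the lists. A 2-fold minimum left 1 HOX rise and 0 falls, and 1 rise and 2 falls in the lists. A plain test without pooled variance gave 0 rises and 0 falls in both sets, and 1 call among all 17958 genes, against 4724 genes at an unadjusted p under 0.05. Without the dimmest 33.3% of genes there were 6 HOX rises and 2 falls, HOXD10 being left out by this filter and HOXB13 added. The median of paralog groups 1 to 3 was then 0.46, since 2 of its 6 genes were left out. With the replicate number as a block there were 8 HOX rises and 2 falls; same-numbered samples share only a number in the labels, and their deviations from the group means correlated at 0.27. The sign turned for genes that were called in neither fit, HOXB6 with housekeeping centring (0.017) and repeated quantile normalization (0.017), HOXB7 (-0.075 to 0.075 with 1 array left out, -0.040 without vehicle replicate 1), HOXC5 (-0.0039 to 0.14 with 1 array left out), HOXD3 with repeated quantile normalization (-0.010) and HOXD12 (-0.35 to 0.072 with 1 array left out). The cause of these shifts was not tested. Housekeeping centring moved the median of all genes by 0.08. Repeated quantile normalization changed values by up to 0.10 and left 5 HOX rises and 1 fall. The median was then 0.15 for the HOX genes, 0.18 for HOXC and 0.17 for HOXD, against -0.03 for all genes.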

Other observations

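A probe set that names HOXC6, HOXC5 and HOXC4 together, and so belongs to no single member, had 6.02 and 6.21 on the treated arrays, against 6.37 and 6.31 on the vehicle arrays, a log2 difference of -0.22. Its treated arrays lay below its vehicle arrays, whereas the probe set for HOXC5 alone overlapped between the groups.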
